A study of Mus musculus with 2 samples.

Results

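The genes described here encode the proteasome and its helpers, as measured in sorted splenic T cells of wild-type C57B6 mice. They were taken by symbol, as every gene named Psma, Psmb, Psmc, Psmd, Psme, Psmf or Psmg that had a non-control probe on both arrays, leaving out Psmb8, Psmb9 and Psmb10. That gave 46 genes with 65 probes, of 17178 genes named on the array. The CD8+ cytotoxic T cells and the CD4+ helper T cells were each hybridised to 1 one-colour Agilent array on a shared slide, so there were no replicates and the cell types could not be tested against each other. How many mice gave each RNA, and which antibodies sorted the cells, is not stated in the sources used here.

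The proteasome is the protease complex that degrades ubiquitin-tagged proteins. Its 20S core is a barrel of alpha rings, which gate the entrance, around beta rings, which hold the proteolytic sites. The 19S cap recognises ubiquitin chains, removes them and unfolds the substrate with a ring of ATPases. In lymphocytes the peptides released also feed MHC class I presentation, and interferon gamma induces an alternative set of catalytic beta subunits, the immunoproteasome, together with the activator PA28.

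The symbol rule is broader than constitutive subunits. Of the 46 genes, 7 encode alpha subunits, 7 beta subunits, 6 ATPases and a further 11 non-ATPase subunits of the cap, which makes 31 genes of the 20S core and 19S cap. Another 7 encode assembly chaperones, 4 encode activators and 1 encodes an inhibitor. Psmb11 encodes a catalytic subunit of cortical thymic epithelium. Psmc3ip, a meiotic recombination factor, and Psme3ip1, which encodes a partner protein of the activator PA28 gamma, carry the prefix but encode no subunit. A further 8 symbols of the reference under the rule had no probe, among them the testis subunit gene Psma8, pseudogenes of Psma5, Psmb5, Psmb6 and Psmb7, and Psme2b, a near copy of Psme2, and they are not analysed here. Whether the probes of these parent genes also bind such copies was not tested.

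A probe's level is the log2 of its processed signal minus the array's 75th percentile, and a difference is the CD8+ minus the CD4+ level. The 75th percentile was a processed signal of 449.9 on the CD8+ array and 508.4 on the CD4+ array, so equal levels have a CD8+ signal 0.885 times the CD4+ signal. Of the non-control spots, 58.6% exceeded background clearly on the CD8+ array and 63.1% did on the CD4+ array. Cd8a was 105.6-fold higher on the CD8+ array and Cd4 4.12-fold higher on the CD4+ array, as the labels have it. All 8 T cell markers were well above background on both arrays. Markers of other cells were present too, and their values are given after those of the activators.

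The levels of the proteasome genes were close to equal on the 2 arrays. On both arrays 45 of the 46 genes were well above background, and no spot was saturated. At least 1.5-fold apart was 1 of the 45, against a background of 14.0% of the 11957 genes above background on both arrays. That gene, Psmc5, was lower on the CD8+ array, where the background for such genes is 8.54%, and none was at least 1.5-fold higher, against 5.5%. Most of these genes are bright, and among genes at or above the 75th percentile on both arrays 93.7% lay within 1.5-fold, against 97.8% of the 45 proteasome genes. By this count the proteasome genes stood little apart from genes of like brightness. None was 2-fold apart, against 5.77% of all genes, of which 1.94% were higher and 3.83% lower on the CD8+ array. The median difference was 0.04 over the 45 genes and 0.02 over all genes. Higher on the CD8+ array by any amount were 26 of the 45, near the background of 53.7%. This split rests on the scaling: it was 41 of 45 when each array was scaled to its median, where the all-gene median was 0.14 further towards the CD8+ array, and 18 of 45 with the percentile taken over detected probes. Differences smaller than 0.14 therefore have no settled direction below, while gaps between genes are untouched by a change of scale.

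**Figure D1:**
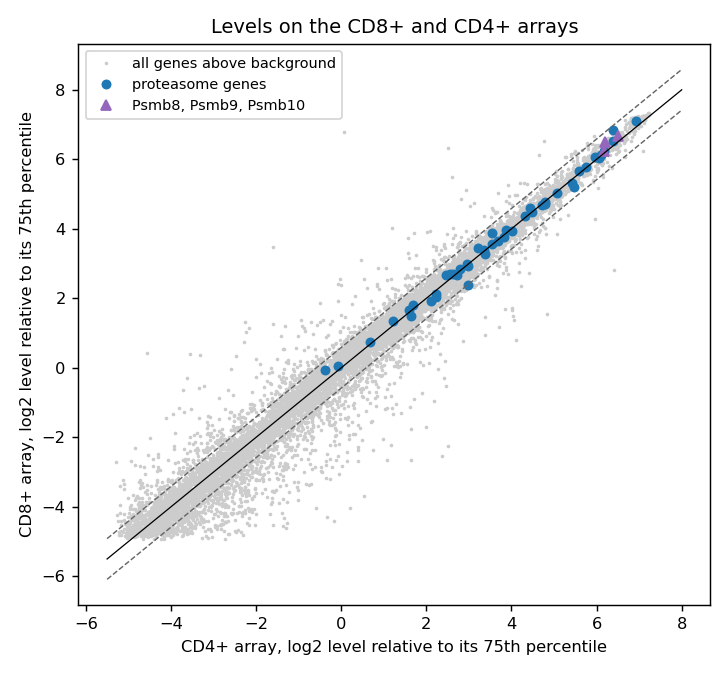
Levels of the genes detected on both arrays: the vertical axis is the CD8+ array and the horizontal axis the CD4+ array, both as log2 relative to the array's 75th percentile; the solid line marks equality and the dashed lines 1.5-fold. The 45 proteasome genes follow the line of equality, with 1 just beyond 1.5-fold, while other genes of the array spread to both sides.

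Most of the differences lay within the spread between probes of a gene. Among probes that target 1 gene, the log2 difference had an SD of 0.23 (3972 genes), of 0.14 where those probes lay at or above the 75th percentile (1428 genes), and of 0.14 between probes of the proteasome genes themselves (15 genes). Across the 45 genes the SD of the difference was 0.17, against 0.35 over the 6479 genes at or above the 75th percentile on both arrays, where 43 of the 45 also lay. Within the 0.23 between-probe SD fell 39 of the 45 (86.7%), against 67.5% of those bright genes and 56.7% of all genes. Within the SD of 0.14 for the brighter probes fell 32 of the 45 (71.1%), against 47.6% of the bright genes. Probes of a gene share the same hybridisations, so their SD does not measure the spread between repeat arrays. The scanner software's own error of each signal corresponds to 0.20 on the log2 difference. Of the 15 genes with more than 1 probe above background, 7 had probes of opposite sign. No spread between animals can be set beside these values, and the number of arrays limits their precision.

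**Figure D2:**
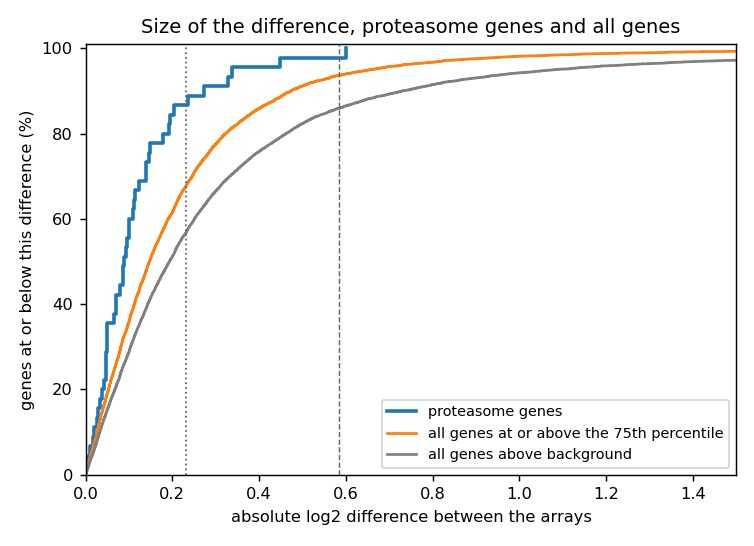
Share of genes (vertical axis, %) whose absolute log2 difference between the arrays is at or below the value on the horizontal axis, for the 45 proteasome genes, all genes at or above the 75th percentile and all genes above background. At the dotted line, the SD of 0.23 between probes of a gene, the curves stand at 86.7%, 67.5% and 56.7%; the dashed line marks 1.5-fold.

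Promoters are shown for the constitutive catalytic genes Psmb5 and Psmb6, the inducible Psmb9 and the activator gene Psme1, because the results below set constitutive against interferon-inducible genes. Each sequence runs 5′ to 3′ from 250 bases before to 50 bases after the annotated start, from RefSeq on GRCm38.p6. Psmb5 lies at chr14:54617946-54618245 on the minus strand, Psmb6 at chr11:70525107-70525406 on the plus strand, Psmb9 at chr17:34187281-34187580 on the minus strand and Psme1 at chr14:55578244-55578543 on the plus strand. Capitals mark matches to TGACNNNGC (the core of the antioxidant response element), CCAAT (the box bound by NF-Y) or GAAA, any 2 bases and GAAA again (a core of the interferon-stimulated response element) on either strand.
Psmb5: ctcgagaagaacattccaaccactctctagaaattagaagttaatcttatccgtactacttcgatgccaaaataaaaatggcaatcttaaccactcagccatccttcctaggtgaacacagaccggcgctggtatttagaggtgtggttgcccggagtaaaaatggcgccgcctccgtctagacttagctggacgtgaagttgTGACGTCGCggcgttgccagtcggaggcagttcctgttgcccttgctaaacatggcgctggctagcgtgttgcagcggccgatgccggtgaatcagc
Psmb6: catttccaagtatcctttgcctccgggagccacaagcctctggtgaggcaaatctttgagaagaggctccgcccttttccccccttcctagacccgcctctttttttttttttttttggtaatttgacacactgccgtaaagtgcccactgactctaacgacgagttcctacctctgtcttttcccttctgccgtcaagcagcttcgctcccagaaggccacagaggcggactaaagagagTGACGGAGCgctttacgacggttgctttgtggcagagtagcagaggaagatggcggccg
Psmb9: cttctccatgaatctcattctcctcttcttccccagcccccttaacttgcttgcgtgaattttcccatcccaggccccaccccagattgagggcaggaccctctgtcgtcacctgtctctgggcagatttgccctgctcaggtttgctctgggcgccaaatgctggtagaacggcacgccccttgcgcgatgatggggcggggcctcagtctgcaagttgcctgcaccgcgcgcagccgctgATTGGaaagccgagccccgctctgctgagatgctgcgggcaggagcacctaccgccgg
Psme1: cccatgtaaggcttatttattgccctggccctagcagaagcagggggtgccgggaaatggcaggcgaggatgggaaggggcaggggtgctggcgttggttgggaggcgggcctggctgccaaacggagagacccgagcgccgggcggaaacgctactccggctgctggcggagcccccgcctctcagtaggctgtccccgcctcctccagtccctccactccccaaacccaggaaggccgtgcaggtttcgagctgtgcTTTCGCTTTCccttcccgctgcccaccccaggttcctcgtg

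The capitals in Psmb5 and Psmb6 are matches to the antioxidant response element core, starting 47 and 9 bases before the start. In Psmb9 they are a CCAAT match on the other strand, and in Psme1 a match to the interferon-stimulated element core on the other strand, from base 10 after the start. A promoter was held for 39 of the 46 genes (43 promoters). CCAAT stood in 34.9% of these 43, against 37.4% of all 32851 promoters of the same length. TGACNNNGC stood in 14.0%, against 12.4% of all promoters. The interferon-stimulated element core, a motif added after the values were seen, stood in 5 of the 43 (11.6%), against 3.44% of all promoters, but in none of the 3 promoters of Psmb8, Psmb9 and Psmb10 and in neither promoter of Psme2. Overlapping matches were counted separately, and no match to one of the 3 motifs overlapped a match to another in these genes. The 5 genes with the last motif were Psme1, Psmg4, Psmd4, Psmb3 and Psmd9, with differences of 0.45, 0.24, 0.09, 0.08 and 0.05. The 6 genes with TGACNNNGC, among them Psmb5 and Psmb6, had differences from -0.10 (Psmb6) to 0.15 (Psme4).

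The 7 alpha subunit genes, whose products form the gate and the docking surface for the caps, differed by a median of -0.03. Only Psma6 was further apart than the between-probe SD: its processed signal was 16581 on the CD8+ array, against 22644 on the CD4+ array, a difference of -0.27 (1.21-fold lower on the CD8+ array). Psma6 was lower on the CD8+ array under all 11 processing alternatives, from -0.50 to -0.13. It has 1 bright probe, so the mean over probes and the filters on probes and spots could only return the same -0.27. The other 6 alpha genes lay between -0.10 and 0.10. Psma4 had 4367 on the CD8+ array, against 5276 on the CD4+ array, a difference of -0.10, while its other probe gave 0.02. At the upper end Psma7 had 29983 on the CD8+ array, against 31623 on the CD4+ array, a difference of 0.10, which turned to just below 0 after quantile normalization. Psma5 followed with 31218 on the CD8+ array, against 34852 on the CD4+ array, a difference of 0.02.

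The 7 beta subunit genes had a median difference of 0.04, and all lay within 0.14 of equality. The proteolytic sites belong to Psmb5, Psmb6 and Psmb7. Psmb5, the chymotrypsin-like subunit, had a processed signal of 4752 on the CD8+ array, against 5188 on the CD4+ array, a difference of 0.05. Psmb6, the caspase-like subunit, had 18059 on the CD8+ array, against 21893 on the CD4+ array, a difference of -0.10. Psmb7, the trypsin-like subunit, had 1943 on the CD8+ array, against 2371 on the CD4+ array, a difference of -0.11. None of these catalytic genes was thus further apart than the SD of 0.14 between the brighter probes of a gene. Among the beta subunits without a proteolytic site, Psmb2 had 1274 on the CD8+ array, against 1585 on the CD4+ array, a difference of -0.14. Psmb1 had 22907 on the CD8+ array, against 24250.3 on the CD4+ array, a difference of 0.09. Both probes of Psmb3 gave small positive differences, 0.08 and 0.05, and Psmb4 differed by 0.04. Psmb11, the thymic subunit gene, was not well above background on either array, with signals of 4.27 and 3.02 from its 2 probes on the CD8+ array, against 2.64 and 2.84 on the CD4+ array.

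The inducible counterparts of the catalytic genes, which were not among the 46, were each higher on the CD8+ array relative to the subunit they replace. Psmb9, which replaces Psmb6, had a processed signal of 34149 on the CD8+ array, against 36912 on the CD4+ array, a difference of 0.06. Psmb10, which replaces Psmb7, had 40922 on the CD8+ array, against 37025 on the CD4+ array, a difference of 0.32. Psmb8, which replaces Psmb5, had 46116 on the CD8+ array, against 45836 on the CD4+ array, a difference of 0.19, and 0.26 by its other probe. The difference of the inducible gene exceeded that of its constitutive partner by 0.17 for Psmb9, 0.43 for Psmb10 and 0.14 for Psmb8. This order held under all 11 processing alternatives, with ranges of 0.13 to 0.17, 0.28 to 0.43 and 0.05 to 0.29. A change of scale cannot alter such gaps, and the filters left them unchanged. Other values came only from normexp, the series values, quantile normalization, loess and, for Psmb8, the mean over probes. Of these gaps only that of Psmb10 is larger than the between-probe SD of 0.23, while that of Psmb9 also exceeds the 0.14 of the brighter probes. Both SDs describe the difference of a single gene. A gap combines the spread of a pair of genes, so these SDs are too narrow a limit for it. No test of the gaps was possible.

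**Figure D3:**
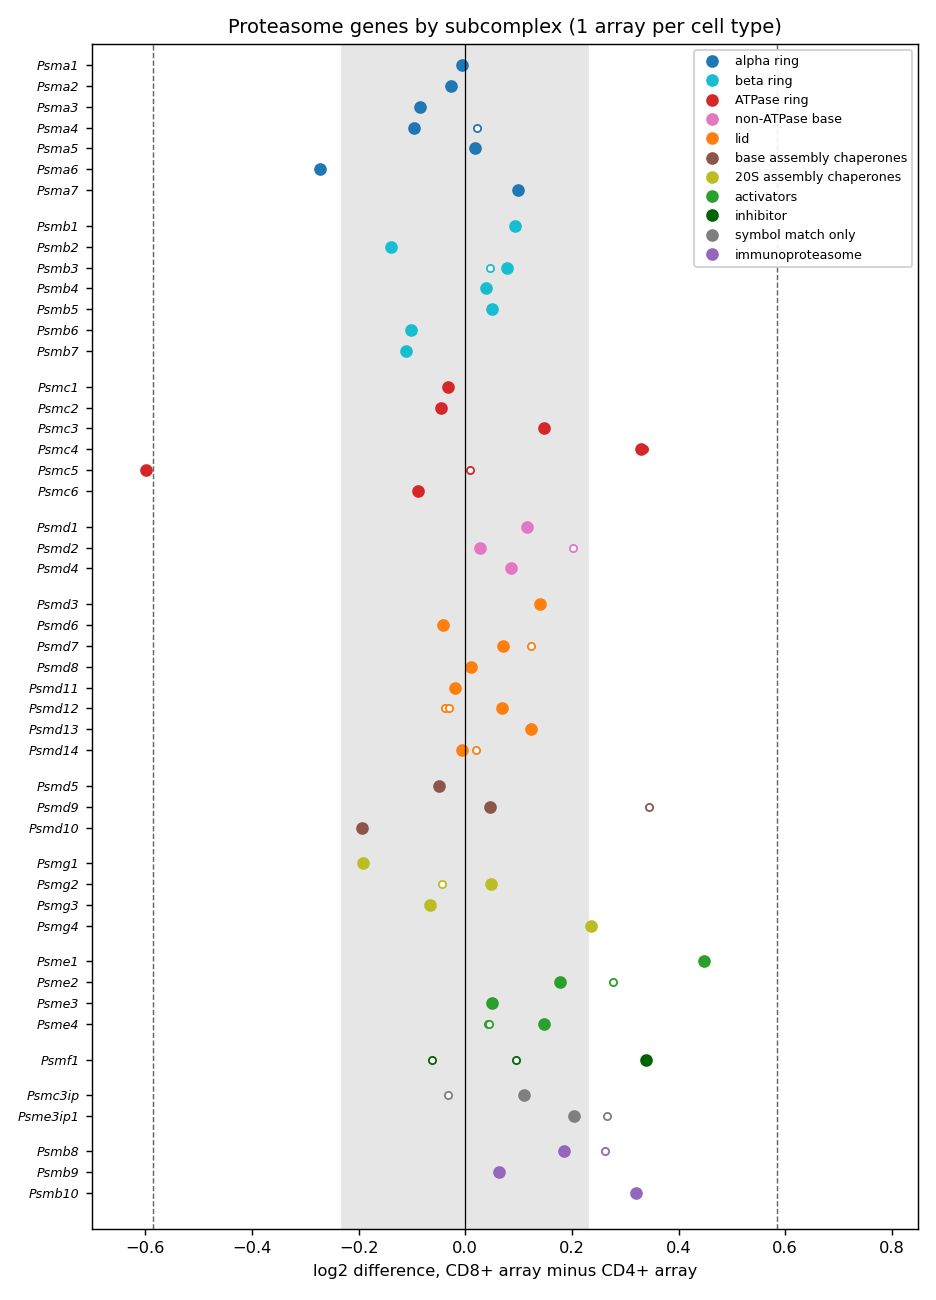
Log2 difference, CD8+ array minus CD4+ array, for each of the 45 proteasome genes above background and for Psmb8, Psmb9 and Psmb10, grouped by subcomplex; filled points are the brightest probe of a gene and open points its other probes, the grey band is ±0.23 (SD between probes of a gene) and dashed lines mark 1.5-fold. By their brightest probe 39 of the 45 lie inside the band; Psmc5 (by 1 of its 2 probes) and Psma6 lie to its left, and Psme1, Psmf1, Psmc4 and Psmg4, with Psmb10, to its right.

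The ATPase ring, which unfolds substrates, had an SD over its 6 genes of 0.31, which includes a Psmc5 value that its probes do not share. Psmc5 was the only proteasome gene at least 1.5-fold apart: its brighter probe had 2334 on the CD8+ array, against 3996 on the CD4+ array, a difference of -0.60 (1.51-fold lower on the CD8+ array). Its other probe had 2436 on the CD8+ array, against 2736 on the CD4+ array, a difference of 0.01, so the probes did not give the same answer. With the mean of both the difference was -0.30, and it was then under 1.5-fold. Psmc4 lay the other way, with 6627 on the CD8+ array, against 5962 on the CD4+ array, a difference of 0.33 (1.26-fold higher), and 0.34 by its second probe. Psmc4 was higher on the CD8+ array under all 11 alternatives, from 0.28 to 0.47, though the filters on probes and spots left its value unchanged. Psmc3 had 2910 on the CD8+ array, against 2970 on the CD4+ array, a difference of 0.15. Psmc6 had 11705 on the CD8+ array, against 14074 on the CD4+ array, a difference of -0.09. The remaining ATPase genes Psmc1 and Psmc2 differed by -0.03 and -0.05.

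The remaining cap subunits were nearly level. The 8 lid genes, whose products include the deubiquitinase, had a median difference of 0.04 and an SD of 0.07. Psmd3, a scaffold of the lid, had 41607 on the CD8+ array, against 42656 on the CD4+ array, a difference of 0.14. Psmd13, another scaffold subunit, had 1134 on the CD8+ array, against 1177 on the CD4+ array, a difference of 0.12. At the lower end stood Psmd6, with 6176 on the CD8+ array, against 7187 on the CD4+ array, a difference of -0.04. Psmd11 had 11607 on the CD8+ array, against 13288 on the CD4+ array, a difference of -0.02. Psmd14, the deubiquitinase itself, gave -0.01 and 0.02 by its 2 probes, Psmd7, its inactive partner, gave 0.07 and 0.12, and Psmd8 gave 0.01. The 3 probes of Psmd12 gave 0.07, -0.03 and -0.04. The 3 genes of the non-ATPase base, which hold ubiquitin receptors and the scaffolds for shuttle proteins, differed by 0.12 (Psmd1), 0.09 (Psmd4) and 0.03 (Psmd2, with 0.20 by its other probe).

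The assembly chaperone genes spread to both sides of equality. Psmd10 (gankyrin), a chaperone of the ATPase ring, had 1849 on the CD8+ array, against 2390 on the CD4+ array, a difference of -0.19, while Psmd5 differed by -0.05. Psmd9 gave 0.05 by its brighter probe and 0.34 by its dimmer one. Among the chaperones of the 20S core, Psmg1 had 1689 on the CD8+ array, against 2181 on the CD4+ array, a difference of -0.19. Psmg2, which pairs with Psmg1, gave 0.05 and -0.04 by its 2 probes. Psmg4 had 4905 on the CD8+ array, against 4706 on the CD4+ array, a difference of 0.24, and its partner Psmg3 differed by -0.07. With normexp background correction the pairs lay closer together, at -0.14 for Psmg1 and -0.06 for Psmg2, and at 0.07 for Psmg4 and 0.03 for Psmg3.

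The regulators, the activators and the inhibitor, held the gene furthest towards the CD8+ array, Psme1. The 4 activator genes had a median difference of 0.16, and the median was positive under all 11 processing alternatives, from 0.05 to 0.31. The filters on probes and spots left this median unchanged. Psme1, the PA28 alpha chain, had a processed signal of 51680.5 on the CD8+ array, against 42816 on the CD4+ array, a difference of 0.45 (1.36-fold higher). It had the largest difference towards the CD8+ array of the 45 genes, and ranged from 0.32 to 0.59 over the alternatives. Psme2, the PA28 beta chain, had 62338 on the CD8+ array, against 62275 on the CD4+ array, a difference of 0.18, and 0.28 by its other probe, but -0.04 after quantile normalization. The median pixel brightness of that brighter Psme2 spot was 63783 on the CD8+ array and 62066 on the CD4+ array, close to the top of the scanner's range though not marked as saturated. Psme3 (PA28 gamma), a nuclear activator, had 1413 on the CD8+ array, against 1543 on the CD4+ array, a difference of 0.05, which was slightly below 0 with loess or the percentile over detected probes. Psme4 (PA200), an activator linked to histone degradation, had 10861 on the CD8+ array, against 11073 on the CD4+ array, a difference of 0.15, and 0.04 and 0.05 by its dimmer probes. For the brightest Psme4 probe normexp gave -0.04 and the series values -0.03. Psmf1, named PI31 for its inhibition of the core in vitro, had 434 on the CD8+ array, against 388 on the CD4+ array, a difference of 0.34. Its other probes gave 0.10 and -0.06, so the direction of Psmf1 was not settled by its probes. Normexp background correction gave 0.07, but the brightest probe was picked anew in that setting and may be another one.

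Beside the activators and the inducible subunits, the 7 B cell markers lay in the same direction. All 7 were well above background on both arrays, and their summed signal, in units of the array's 75th percentile, was 29.7 on the CD8+ array and 19.1 on the CD4+ array. The summed signals of the other marker lists given here lay the other way. The 7 plasma cell genes summed to 5.05 on the CD8+ array, where Tnfrsf17 was not well above background, and 7.77 on the CD4+ array. The 6 NK cell genes summed to 13.1 on the CD8+ array and 26.4 on the CD4+ array, with Klre1 detected on neither. The largest signals of that list were those of Tyrobp (3997 on the CD8+ and 10166 on the CD4+ array) and Fcer1g (1746 and 2687). For 5 dendritic cell genes the sums were 2.35 on the CD8+ array and 5.84 on the CD4+ array, and for 7 myeloid genes 25.4 on the CD8+ array and 30.9 on the CD4+ array. Within these lists Klrk1 (NK, 0.54), Xcr1 (dendritic, 0.35), S100a9 (myeloid, 0.27) and Csf1r (myeloid, 0.05) were higher on the CD8+ array. The other probe of Xcr1 gave a much larger difference, 3.03, and the highest of the Csf1r probes gave 0.25. The other genes of the 3 lists detected on both arrays were lower there. The 10 cell cycle genes summed to 70.4 on the CD8+ array and 73.1 on the CD4+ array. Their median difference was -0.59, with 8 of them lower and 5 at least 1.5-fold lower on the CD8+ array. Of all 11957 genes, 5535 were lower and 8.54% at least 1.5-fold lower on the CD8+ array. Mcm5 (0.34) and Mcm2 (0.13) were higher on the CD8+ array. The part of these cells in the values of Psme1, Psme2, Psmb8, Psmb9 and Psmb10 was not tested. On these bulk arrays fewer cells of a type and less RNA per cell cannot be told apart.

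Of the genes matched by symbol alone, Psmc3ip gave 0.11 by its brighter probe and -0.03 by the other. Psme3ip1 gave 0.20 and 0.27. Without these 2 the median over the remaining 43 genes was 0.03.

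Of the other genes of the pathway, none of the 9 measured proteasome partners, the 8 regulators of proteasome genes or the 15 ubiquitin and shuttle genes was 1.5-fold apart in either direction, against backgrounds of 5.5% of all genes at least 1.5-fold higher and 8.54% at least 1.5-fold lower on the CD8+ array. The partners had a median of 0.07, with 8 of 9 higher on the CD8+ array by any amount, and the ubiquitin and shuttle genes one of 0.12, with 14 of 15 higher. The 31 genes of the 20S core and 19S cap had a median of 0.01, with 16 higher, and the background for this count is 53.7%. The partners included Sem1, a small lid subunit, at -0.07, Pomp, the maturation factor of the core, at 0.03, and the ubiquitin receptor gene Adrm1 at 0.10. Nfe2l1 (NRF1), the transcription factor that raises proteasome genes when the protease is inhibited, had 5978 on the CD8+ array, against 6902 on the CD4+ array, a difference of -0.03. Nfyc, a subunit of the CCAAT-binding factor NF-Y, differed by 0.39, while Nfya and Nfyb differed by -0.16 and -0.19. In the ubiquitin group Uba1, the main ubiquitin-activating enzyme, had the largest value, 0.47 by its brighter and 0.15 by its dimmer probe. The polyubiquitin gene Ubb was saturated on both arrays, so its difference has no measured size.

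The TRiC chaperonin, another large cytosolic complex with a subunit per gene, was set beside the proteasome. Like the other lists, it was chosen with earlier results of these data known, so it is not a neutral comparator. All 8 of its genes were higher on the CD8+ array, against 53.7% of all genes and 59.5% of the bright genes. Their median was 0.23 (range 0.06 to 0.39), none was 1.5-fold apart, and Tcp1 (0.06) and Cct5 (0.10) lay where the scaling can turn the sign. The 14 genes of the 20S core had a median of -0.02 and the 17 of the 19S cap one of 0.03. The median of the core was below that of all genes under each of the 11 alternatives, while that of the TRiC genes lay between 0.15 and 0.37 on the CD8+ side. Median scaling and the percentile over detected probes cannot change the order of the core and all genes. Whether the complexes differ was not testable with 1 array per cell type.

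**Figure D4:**
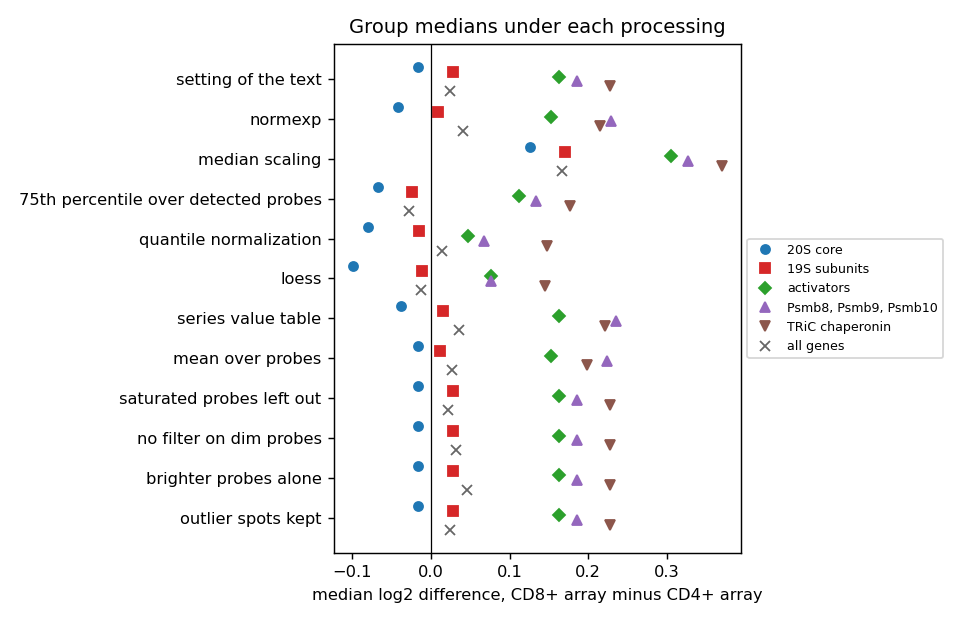
Median log2 difference, CD8+ array minus CD4+ array, of the 20S core (14 genes), the 19S subunits (17), the activators (4), Psmb8, Psmb9 and Psmb10, the TRiC chaperonin (8) and all genes, under the setting of the text and 11 processing alternatives (rows). Median scaling moves every group to the right together; in each row the core lies at the left and the activators, the inducible subunits and TRiC at the right.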

How the data were processed

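One array per cell type was analysed, CD8+ and CD4+. The deposited scanner files give spot intensity on a linear scale, made with Feature Extraction 10.1.1.1 per the file headers, while the submitters' processing notes name version 9.1. The processed intensity was background-subtracted and detrended by that software, with no scaling between arrays, per the file headers' columns. The authors' series values equalled the median pixel intensity at 45018 of 45018 spots on each array.

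From these, processed signals were divided by the 75th percentile of their array's non-control spots and put on a log2 scale. Control spots and outlier spots (92 on the CD8+ and 99 on the CD4+ array) were left out, and saturated spots kept. A gene took its brightest probe well above background on both arrays. Accessions were named, without version, through a RefSeq table of GRCm38.p6, and 24844 of 41174 probes matched 1 symbol. The file headers name another build, so no coordinates were taken from that table, and the promoter coordinates are those of RefSeq on GRCm38.p6.

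With 1 array per group there is no test and no p-value. Counts past 1.5-fold and 2-fold are given beside those over all genes. The members and lists were chosen with earlier results of these data known. Every gene under the symbol rule could be named; signals are given for the catalytic subunits and their inducible counterparts, the activators and the inhibitor, the 2 largest differences in each direction in the alpha, beta, ATPase and lid groups, and genes 1.5-fold apart or not above background; some others are named after their values were seen. Alternatives were normexp (offset 50, from median pixel brightness and local background), scaling to the median, the percentile over detected probes, quantile normalization, loess (span 0.3), the series values, the mean over probes, saturated probes left out, no filter or brighter probes alone, outlier spots kept, a 2-fold threshold, and members without those matched by symbol alone. One marker list and 1 gene of the ubiquitin group are not reported here. The gene step was tested on simulated data. Software was limma 3.58.1 in R 4.3.3, and pandas 2.3.3 with numpy 2.4.6 in Python 3.11.15.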

Additional observations from a re-analysis of the deposited data

How the results depend on the processing

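Among the group medians and counts under the alternatives, 172 values stayed within the 0.23 SD between probes of a gene, or within 1.5 times the count, and 6 did not. That limit is wide for medians this close to 0, and several alternatives leave bright probes untouched, so the count does not measure robustness. A change of sign can fall within it: the alpha ring median went from -0.03 to 0.12 with median scaling. The number of genes higher on the CD8+ array was 41 of 45 (91.1%) with median scaling, against 26 (57.8%), and 18 (40.0%) with the percentile over detected probes or after quantile normalization. The count at least 1.5-fold apart, which was 1 (Psmc5), was 0 with the mean over probes, the series values, normexp or a 2-fold threshold, and 2 of 46 with no filter on dim probes, which adds Psmb11. Among single genes, Psmc5 was -0.30 with the mean over probes and Psmf1 0.07 with normexp, and the other 524 values moved by less than 0.23. The median over all 45 genes ranged from -0.04 to 0.18 and turned negative with normexp, with the percentile over detected probes, and after quantile and loess normalization, as differences this small do not fix a direction. No paired analysis was possible because each group has 1 array, and no array could be left out.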
